A study of Mus musculus with 2 samples.

Results

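Semaphorins, plexins and neuropilins, the ligands, receptors and co-receptors of one guidance system between cells, were read across 2 RNA sequencing libraries of primary mouse chondrocytes. The genes were chosen by symbol (classes 3 to 7 of the semaphorins, the A, B, C and D plexins, Nrp1 and Nrp2) and selected on a summed count over both libraries of at least 20. The symbols named 31 of the 21983 rows of the count table, made up of 7 secreted class 3 semaphorins, 13 membrane semaphorins of classes 4 to 7, 9 plexins and 2 neuropilins. The count floor kept 30 of them. Sema6a, with 26 summed counts, was the member just above it, and Sema5b, with 0 counts in both libraries, was the member below it. The floor is not independent of the ratio for a rare gene: Sema6a, with 3 and 23 counts, passed it only through the Sparcl1-treated library.

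The cultures were wild type, and the sources used here do not give sex, age or the number of animals. The control culture was given PBS alone. The treated culture was given recombinant mouse Sparcl1, a secreted matricellular glycoprotein, at 50 ng/ml. Both were kept for 3 days in DMEM with fetal bovine serum. The design asks how the transcripts of chondrocytes differ after exposure to added Sparcl1.

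Semaphorins carry a large extracellular sema domain. Class 3 members are secreted, those of classes 4 to 6 span the membrane, and class 7 is held by a lipid anchor. Plexins bind the sema domain and act on small GTPases and the actin cytoskeleton through an intracellular GTPase-activating domain. Most class 3 semaphorins need a neuropilin to bring them to a class A plexin, and neuropilins also bind vascular endothelial growth factors (VEGFs). In the skeleton the system is known for guiding nerves and vessels and for exchange of signals between osteoblasts and osteoclasts.

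Each group had 1 library, which leaves the variation among cultures unknown. No difference below was therefore tested or has a replicate check. The libraries held 29858851 (control) and 26871933 (Sparcl1) gene counts. Each gene was described by the log2 ratio of its CPM (counts scaled to library size), Sparcl1-treated over control. The 95% interval in brackets covers counting error only, and treats reads as independent molecules. To be called higher or lower, a gene needed 20 or more counts in sum, a change of 2-fold (1 on the log2 scale) or more, and an interval clear of 0.

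The cell type label was compared with markers. All 10 chondrocyte markers were measured, Col2a1 with 254556 and 199410 counts, and their summed level was 13814 CPM in the control and 12091 CPM after Sparcl1. Col1a1, from the osteoblast list, was of similar abundance to Col2a1, with 242065 and 171600 counts. The 12 macrophage markers were all measured too, at 2245 and 2571 CPM in sum, of which Lyz2 alone held 1327 and 1640 CPM. Of 9 endothelial markers 3 passed the floor, led by Vwf with 145 and 84 counts, while Cldn5 and Tie1 had 1 and 0. Of 8 neuronal markers 3 passed it: Tubb3 had 132 and 187 counts (log2 0.62, 0.29 to 0.95), Stmn2 43 and 35, and Syt1 34 and 32, while Snap25 and Elavl4 were at 0 in both libraries. Of 7 Schwann cell markers 5 passed it, led by Mbp with 554 and 515 counts, with Sox10 at 72 and 97 (log2 0.55, 0.09 to 1.01) and Foxd3 at 0 in both. In bulk libraries, fewer cells of a type and less RNA per cell cannot be told apart.

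Of the 30 measured members 1 was called higher and none lower in the Sparcl1-treated library. Of all 13317 genes with at least 20 summed counts 0.954% were called higher and 0.946% lower. The called gene was Sema6a, which had to differ to be measured at all, so its call supports nothing about the family. The median log2 ratio of the members was -0.01, beside 0.00 over all measured genes, and 15 members lay on each side of 0. In 24 of the 30 the ratio was under 0.50 in size, beside 12113 of all 13317 measured genes. The ratios of the family were thus evenly split around 0.

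At a smaller size of 1.5-fold, 4 members were called higher (Sema6a, Sema4f, Sema6b and Plxnb3) and 2 lower (Sema3d and Sema5a). The share of all genes called at that size was 2.32% higher and 2.35% lower. By the interval alone, with no size set, 11 of the 30 members lay above 0 and 10 below, against 20.1% and 21.6% of all genes. Abundant genes have narrow intervals and can pass that last rule at a small ratio, as Plxnb2 did with a log2 ratio of 0.03. Among the 18 members with at least 1000 summed counts, 4 lay above 0 by that rule and 8 below. Of the 8068 genes at that depth, 1951 lay above and 2197 below. The part of depth in the members' counts was not tested.

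**Figure D1:**
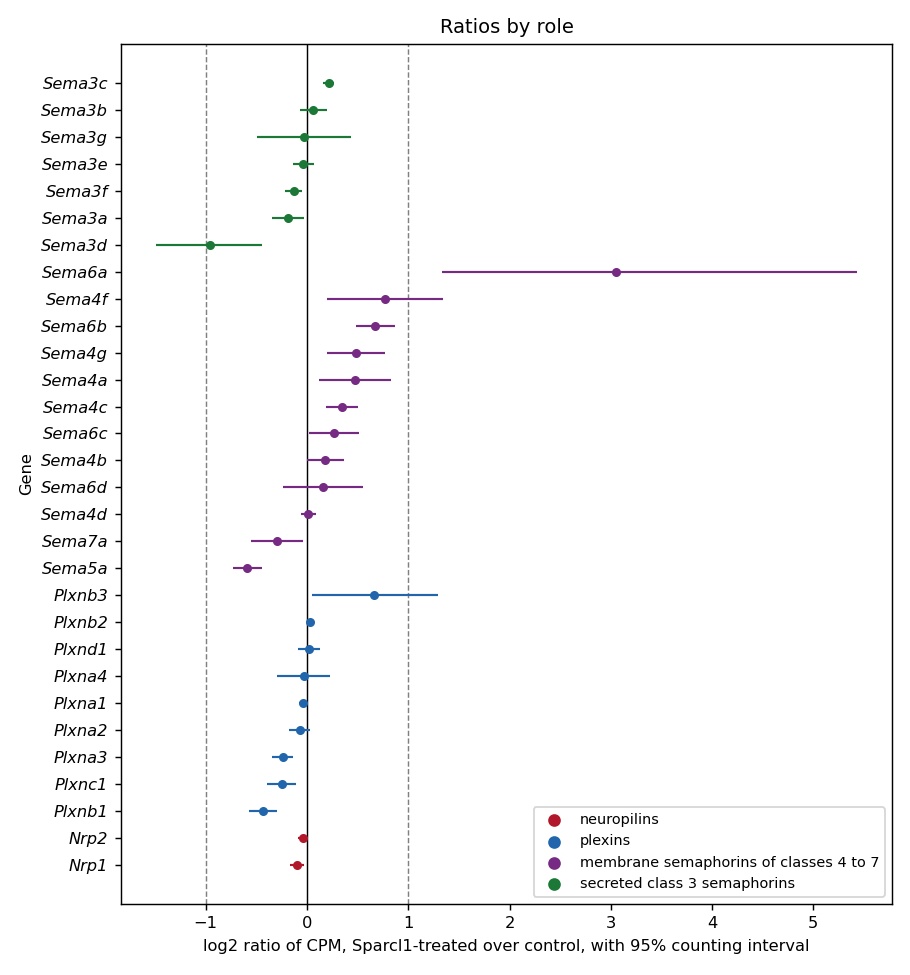
Log2 ratio of CPM, Sparcl1-treated over control (x axis), for the 30 measured members (y axis), ordered within role. Points are the ratios of 1 library per group, bars are 95% counting intervals, and dashed lines mark a log2 ratio of 1 in either direction. Only Sema6a lies past a dashed line, while Sema3d ends just short of the lower one at -0.96.

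Levels were compared between genes per kb of exon length, and 2 plexins stood highest. Plxnb2, the receptor of Sema4c and other class 4 semaphorins, held 22791 and 21455 reads (control first, here and below), or 100.1 and 102.2 CPM per kb. Plxna1, a class A plexin used by class 3 and class 6 semaphorins, followed with 12908 and 11587 counts (48.3 and 47.1 CPM per kb). Both were above every ligand, and neither differed by more than 0.04 in log2 ratio. The most abundant ligand was Sema3c at 23.31 and 27.02 CPM per kb. Nrp2 (20.3 and 19.8), Sema3f (16.8 and 15.4), Nrp1 (14.2 and 13.3), Sema4d (13.2 and 13.3) and Plxna3 (7.49 and 6.33) completed the 8 highest members. The other 22 members ranged down to 0.01 and 0.10 CPM per kb for Sema6a, the lowest of all.

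Among the 29 pairs of neighbours in the order of levels, the counting intervals overlapped in both libraries for 7 pairs, in 1 library for 13, and in neither for 9. All 5 steps from Plxnb2 down to Nrp1 were among the pairs apart in both. Plxnb1 and Sema4b were apart in both libraries but traded order: Plxnb1 stood at 3.77 CPM per kb in the control and 2.79 after Sparcl1, Sema4b at 3.02 and 3.43. With the longest transcript as length in place of all exons, Nrp1 moved from rank 6 to rank 3, and Sema3b replaced Plxna3 among the 8 highest.

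**Figure D2:**
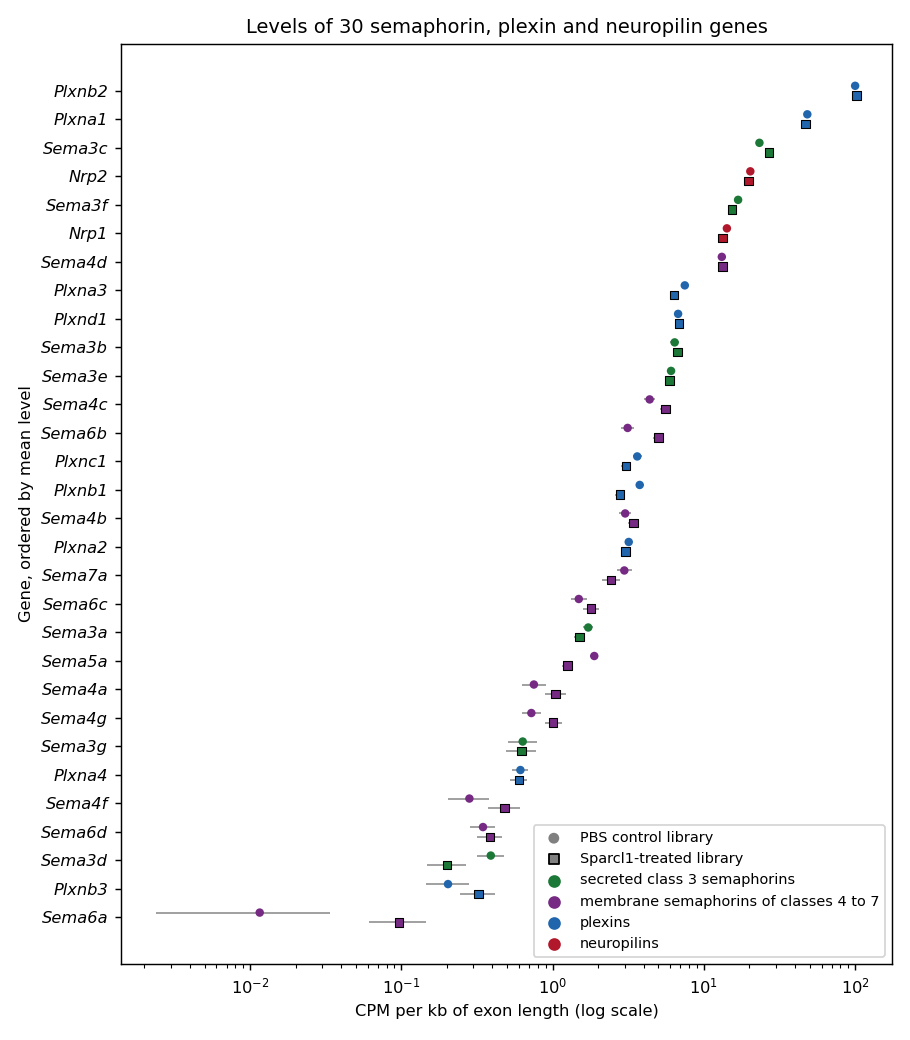
Level of each measured member in CPM per kb of exon length (x axis, log scale), with genes on the y axis in order of their mean level. Circles are the control library and squares the Sparcl1-treated library, colours give the role, and bars are 95% counting intervals. Plxnb2 at about 100 CPM per kb is the highest member, and Sema6a, at 0.01 in the control and 0.10 after Sparcl1, the lowest.

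The secreted class 3 semaphorins had a median log2 ratio of -0.04, and none of the 7 was called. Sema3d, a ligand known in heart and vessel development, was read 99 times in the control library and 47 times after Sparcl1. Its log2 ratio of -0.96 (-1.49 to -0.44), or 1.94-fold lower, was the lowest of all members and just short of the size set. It lay just inside the central 95% (-0.97 to 0.85) of the 716 genes with 100 to 199 summed counts. Sema3c, which acts in outflow tract and neural crest development, had 4910 and 5248 counts, and its log2 ratio of 0.21 (0.16 to 0.27) was the highest of the class. The abundant and the rare end of the class thus had ratios on opposite sides of 0.

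Sema3a, the classic axon repellent that also limits bone resorption, had 704 and 570 counts (log2 -0.19, -0.35 to -0.03). Sema3f, a ligand of Nrp2, had 2583 and 2175 counts (-0.13, -0.21 to -0.05). Both lay below 0 by less than the size set. Sema3e, which binds Plxnd1 directly without a neuropilin, had 1663 and 1496 counts (-0.04, -0.14 to 0.07). The intervals of Sema3b (904 and 871 counts, 0.06) and Sema3g (85 and 77, -0.03) also held 0. When trends with exon length and GC content were removed, Sema3a stood at -0.01, Sema3e at 0.09 and Sema3c at 0.31. Each of these lay above the gene's counting interval.

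Of the 7 class 3 genes 4 lie on chromosome 5 (GRCm38, the mm10 build). Sema3d (12383385 to 12588948), Sema3a (13125414 to 13602565), Sema3e (14025276 to 14256689) and Sema3c (17574281 to 17730268) follow each other on the plus strand, with gaps of 536.5, 422.7 and 3317.6 kb. Along that stretch the log2 ratios were -0.96, -0.19, -0.04 and 0.21. The levels in the control ran from 0.39 CPM per kb for Sema3d to 23.3 for Sema3c, so neighbours on the chromosome had neither a common level nor a common ratio. Sema3b and Sema3f are neighbours on chromosome 9, 72.3 kb apart on the minus strand, with ratios of 0.06 and -0.13.

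The promoters of the chromosome 5 genes are shown because these close relatives differ so widely in level. That of Sema3c is described only, since its window lies in an untranslated exon of the longest GENCODE transcript. Each line holds the 200 bases before the RefSeq start (GRCm38.p6, plus strand), in the order of the chromosome. Capitals mark matches on either strand to the 4 motifs searched. These were the TATA box, searched as TATAAA. The GC box was searched as GGGCGG. The CCAAT box was searched by the letters in its name. The AP-1 site was searched as TGANTCA.
Sema3d, chr5:12382966-12383165: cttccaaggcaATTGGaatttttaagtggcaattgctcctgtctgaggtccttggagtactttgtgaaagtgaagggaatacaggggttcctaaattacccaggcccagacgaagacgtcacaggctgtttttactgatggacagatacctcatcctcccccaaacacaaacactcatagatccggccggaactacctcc
Sema3a, chr5:13396584-13396783: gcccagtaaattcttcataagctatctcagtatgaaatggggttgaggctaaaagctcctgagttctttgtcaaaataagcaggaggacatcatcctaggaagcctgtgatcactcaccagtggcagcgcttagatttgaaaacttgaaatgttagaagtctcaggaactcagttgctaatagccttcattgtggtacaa
Sema3e, chr5:14025076-14025275: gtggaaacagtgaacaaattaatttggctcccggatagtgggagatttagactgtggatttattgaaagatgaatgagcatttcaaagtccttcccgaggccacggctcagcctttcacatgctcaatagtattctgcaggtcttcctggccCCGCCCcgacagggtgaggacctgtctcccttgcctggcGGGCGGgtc

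The 4 windows, that of Sema3c included, differed in base composition. The Sema3c window held 32 CpG dinucleotides, at 77% GC, and 2 GC boxes. The Sema3e window held 7 CpGs and 2 GC boxes, the Sema3d window 4 CpGs and a CCAAT box, and the Sema3a window 1 CpG and none of the 4 motifs. The RefSeq start used for Sema3a lies inside the longer GENCODE gene, so other starts of that gene are not shown. A match is a description of letters and not a binding site.

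The family's promoters were described in the same way. Windows were found for 26 of the 31 members (not for Sema3b, Sema3f, Plxna1, Plxna4 and Sema6a), 37 in all because some genes have several starts, and windows of 1 gene can overlap. A GC box stood in 27 of the 37 (73.0%), beside 31.0% of all 32851 windows and 54.3% of the windows of measured genes. TATAAA stood in none, beside 9.96% of all windows and 4.86% of those of measured genes. A CCAAT box stood in 5 windows (13.5%), against 29.3% of all windows and 31.2% of those of measured genes. An AP-1 site stood in 2, those of Sema4c and Sema6b (5.41%), against 5.48% of all windows and 3.83% of those of measured genes. The median window held 11 CpGs, against 5 over all windows and 13 over those of measured genes.

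Membrane semaphorins of classes 4 to 7 had a median log2 ratio of 0.31, with 10 of the 12 measured members above 0 and 1 called higher. Those 10 were exactly the members of classes 4 and 6, whose ratios ran from 0.01 for Sema4d to 3.06 for Sema6a. In 8 of them the interval lay above 0, in 7 with upper-quartile factors and in 6 with length and GC trends removed. Over all measured genes, 6608 of 13317 lay above 0, and 20.1% had an interval above 0. Sema6a passed the floor only through the treated library. It is counted in the 10, the 8 and the median of 0.31, and adds no support to them. The direction held for all 10 under each of 3 other scalings, with a prior count of 2 and with length and GC trends removed. Sema4d lay close to 0 throughout. Each scaling shifted every ratio by the same amount, and a prior count only pulls ratios toward 0. Neither could turn any of the 10 here, so the scalings and the prior count add no support. The single measured members of classes 5 and 7, Sema5a and Sema7a, had ratios below 0. The split by class was made after the values were seen, and the difference between classes was not tested.

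Sema6a, a ligand of Plxna2 and Plxna4 in neural wiring, lies on chromosome 18 (47235598 to 47368870, minus strand). It was read 3 times in the control library and 23 times in the Sparcl1-treated library. Its log2 ratio was 3.06 (1.33 to 5.43), or 8.32-fold, and rested on these few reads. At its control level in both libraries it would not have passed the floor, so its ratio is given as a description. With a prior count of 2 the log2 ratio was 2.41, and with a floor of 100 summed counts the gene was not measured. Of the 787 genes at that depth (20 to 49 reads in sum), 95% lay between -1.75 and 1.86.

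Sema6b, a class 6 ligand of Plxna4, was read 367 and 540 times, 1.60-fold higher after Sparcl1 (log2 0.67, 0.48 to 0.87). Of the 4 members past 1.5-fold above 0 it had the most reads. The central 95% of the 1741 genes with 500 to 999 summed counts ran from -0.47 to 0.48, and Sema6b lay outside it. It also passed Plxnb1 in level, from 3.14 to 5.00 CPM per kb. Sema6c had 261 and 290 counts (0.27, 0.02 to 0.52). Sema6d, a Plxna1 ligand of dendritic cells and osteoclasts, had 108 and 111 (0.16, -0.24 to 0.55). Leaving out Sema6a, which passed the floor only through the treated library, class 6 ran from 0.16 to 0.67. The interval of Sema6d overlapped those of Sema6c and Sema6b.

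In class 4, Sema4d was by far the most abundant member and had nearly equal levels. This osteoclast-derived inhibitor of bone formation was read 2979 and 2774 times (0.01, -0.06 to 0.09). The less abundant members had larger ratios. Sema4c, a Plxnb2 ligand, had 594 and 695 counts (0.34, 0.18 to 0.50), and Sema4b had 503 and 526 (0.18, 0.00 to 0.36). Sema4a, known for its role in T cell priming, had 120 and 154 (0.48, 0.12 to 0.83). For Sema4g they were 185 and 238 (0.48, 0.20 to 0.77), and for Sema4f 44 and 69 (0.77, 0.20 to 1.35). None of the 6 was called at the size set.

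Sema5a, a semaphorin with thrombospondin repeats beside its sema domain, lay on the other side of 0. It was read 1040 and 638 times (log2 -0.59, -0.73 to -0.44). It lay outside the central 95% (-0.38 to 0.39) of the 2366 genes with 1000 to 1999 summed counts. With length and GC trends removed its log2 ratio was -0.43. Sema7a, the lipid-anchored ligand of Plxnc1 and of integrins, had 290 and 218 counts (-0.29, -0.55 to -0.04).

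The promoters of Sema6b and Sema5a are shown as those of the 2 ligands with over 500 summed counts that lay outside the central 95% for their depth, on opposite sides. They are printed as above, 5′ to 3′ on the gene's strand, from the first start of Sema6b (minus strand) and the start of Sema5a (plus strand).
Sema6b, chr17:56140344-56140543: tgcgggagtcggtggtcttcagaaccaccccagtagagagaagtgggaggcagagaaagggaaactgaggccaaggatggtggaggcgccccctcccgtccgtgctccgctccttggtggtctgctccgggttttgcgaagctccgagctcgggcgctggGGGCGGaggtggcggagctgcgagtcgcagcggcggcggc
Sema5a, chr15:32244613-32244812: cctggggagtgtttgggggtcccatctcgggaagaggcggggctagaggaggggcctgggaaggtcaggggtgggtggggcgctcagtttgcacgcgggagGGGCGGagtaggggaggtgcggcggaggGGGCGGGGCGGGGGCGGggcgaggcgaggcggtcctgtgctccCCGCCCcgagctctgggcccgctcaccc
The Sema6b window held 18 CpGs and 1 GC box, and the Sema5a window 17 CpGs and 5 GC box matches, some of which share bases, so both held more CpGs than the median member window, and neither held a TATAAA. The far end of the Sema5a window lies in the first exon of the noncoding RNA gene Snhg18.

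**Figure D3:**
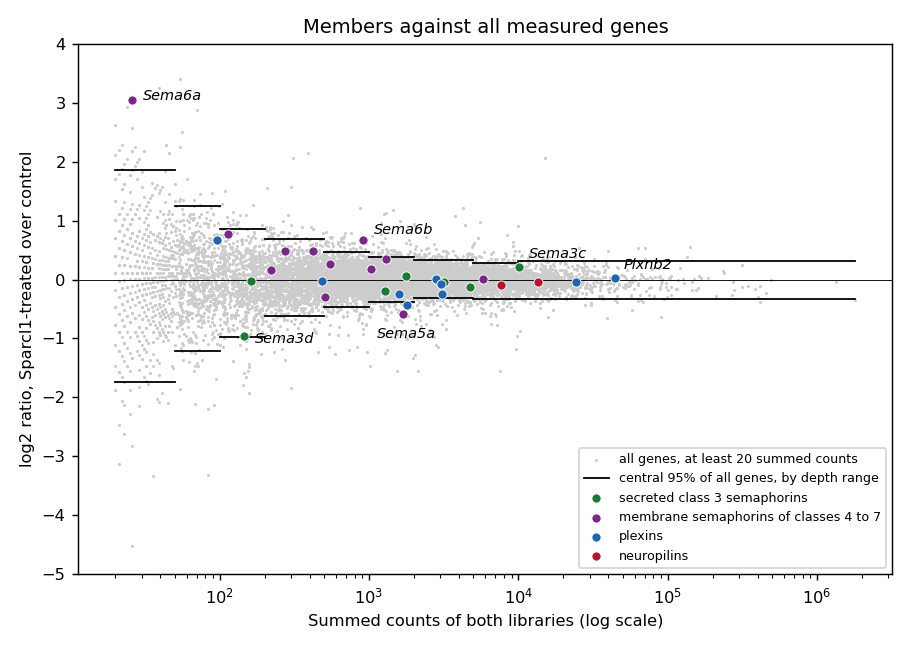
Log2 ratio, Sparcl1-treated over control (y axis), against the summed counts of both libraries (x axis, log scale) for all genes with at least 20 summed counts (grey) and the members (colours by role). Black lines bound the central 95% of all genes in each depth range. Of the 30 members 4 lie outside it, Sema6a and Sema6b above and Sema5a and Plxnb1 below.

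Plexins had a median log2 ratio of -0.04, and none of the 9 was called. The 2 most abundant, Plxnb2 (0.03, 0.00 to 0.06) and Plxna1 (-0.04, -0.07 to 0.00), stood near equal levels. Plxnb1, the receptor of Sema4d, had the lowest ratio of the class, with 1066 and 728 reads (-0.43, -0.57 to -0.30). It lay outside the central 95% of genes at its depth. The third B plexin, Plxnb3, a receptor of Sema5a, was rare, with 39 and 57 counts (0.66, 0.05 to 1.29). The interval of Plxnb1 lay below those of the other 2 B plexins, which overlapped each other.

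All 4 class A plexins had log2 ratios below 0, by 0.24 at most, but with total counts as library sizes 1 of them lay above 0, and with length and GC trends removed 2 did. Plxna3, which pairs with Nrp2 for Sema3f, had 1740 and 1357 counts (-0.24, -0.34 to -0.14). Plxna2 had 1615 and 1418 (-0.07, -0.17 to 0.03) and Plxna4 255 and 230 (-0.03, -0.30 to 0.23). Plxnc1, the receptor of Sema7a, had 894 and 694 counts (-0.25, -0.39 to -0.10). Plxnd1, the receptor of Sema3e, had 1456 and 1359 (0.02, -0.09 to 0.13).

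Both neuropilins were abundant and close to equal in the 2 libraries. Nrp2 was read 7090 and 6379 times (-0.04, -0.08 to 0.01). Nrp1, the co-receptor of Sema3a and of VEGF-A, had 4101 and 3534 (-0.10, -0.16 to -0.03). With length and GC trends removed, both ratios lay above 0, at 0.04 for Nrp2 and 0.03 for Nrp1, so the side on which they fall depends on that choice.

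Known ligand and receptor pairs were set side by side. Sema7a and Plxnc1 both had ratios below 0, at -0.29 and -0.25. Sema4d stood at 0.01 and its receptor Plxnb1 at -0.43, and the intervals of the 2 did not overlap. Sema4c and Sema4a, at 0.34 and 0.48, faced a near-equal and far more abundant Plxnb2. Sema5a at -0.59 and Sema6d at 0.16 share Plxna1 at -0.04. These ligands of 1 receptor had ratios on both sides of 0, but the interval of Sema6d (-0.24 to 0.55) held 0. Plxnb3, also named above as a receptor of Sema5a, stood at 0.66 (0.05 to 1.29). Sema6a at 3.06 faced Plxna2 at -0.07 and Plxna4 at -0.03. Every listed pair with a secreted ligand lay within 0.25 of 0. These were Sema3e (-0.04) and Plxnd1 (0.02), Sema3a (-0.19) and Nrp1 (-0.10), and Sema3c (0.21), Sema3f (-0.13) and Nrp2 (-0.04). Sema3d, at -0.96 the lowest of all members, was not among the pairs, nor were Sema3b and Sema3g.

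Of 8 VEGF ligands and receptors that share neuropilins, 1 was called higher, beside 0.954% of all measured genes. The list was chosen with earlier results of these data known, and its median log2 ratio was 0.10. The called gene was Flt4, the VEGF-C receptor that works with Nrp2, with 96 and 190 reads, a 2.15-fold higher level after Sparcl1 (log2 1.10, 0.74 to 1.47). Vegfa, the most abundant ligand, had 2380 and 2536 counts (0.21, 0.13 to 0.29), and Vegfb had 724 and 849 (0.35, 0.20 to 0.49). Pgf, at 26 and 14 counts, had the lowest ratio of the list (-0.78, -1.83 to 0.21). The Flt4 level differed between the libraries while its co-receptor Nrp2 stood at -0.04. The 3 measured endothelial markers summed to 7.86 CPM in the control and 5.59 CPM after Sparcl1: Vwf had 145 and 84 counts (log2 -0.67, -1.08 to -0.27), Kdr 54 and 37, and Esam 33 and 31. Under the floor were 6 others, among them Pecam1 with 12 and 7 counts and Cdh5 with 3 and 5. Their part in the Flt4 ratio was not tested.

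Of 15 binding partners and alternative receptors 13 were measured and none was called, with a median of -0.03. Itgb1, the integrin chain through which Sema7a can act, had 41845 and 35447 counts (-0.12), and its partner chain Itga1 had 6434 and 4593 (-0.37, -0.42 to -0.31). The extremes were Nrcam, an adhesion molecule of axons, at 0.44 (891 and 1118 counts) and Kdr, the main VEGF-A receptor, at -0.43 (54 and 37 counts). Trem2 was listed at 0 in both libraries and Timd2 at 1 and 0 counts.

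Of 32 intracellular effectors 29 were measured, none was called, and the median log2 ratio was -0.02. Of these 28 lay within 0.50 of 0, beside 12113 of all 13317 measured genes. The actin-severing protein gene Cfl1 had 16521 and 16892 counts (0.15, 0.12 to 0.18), and the GTPase gene Rhoa had 13066 and 11801 (-0.03). The exception was Rnd1, a small GTPase that binds plexins, read 752 and 1103 times (log2 0.67, 0.53 to 0.81). The lowest was Ranbp9, a plexin-binding scaffold, at -0.16.

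**Figure D4:**
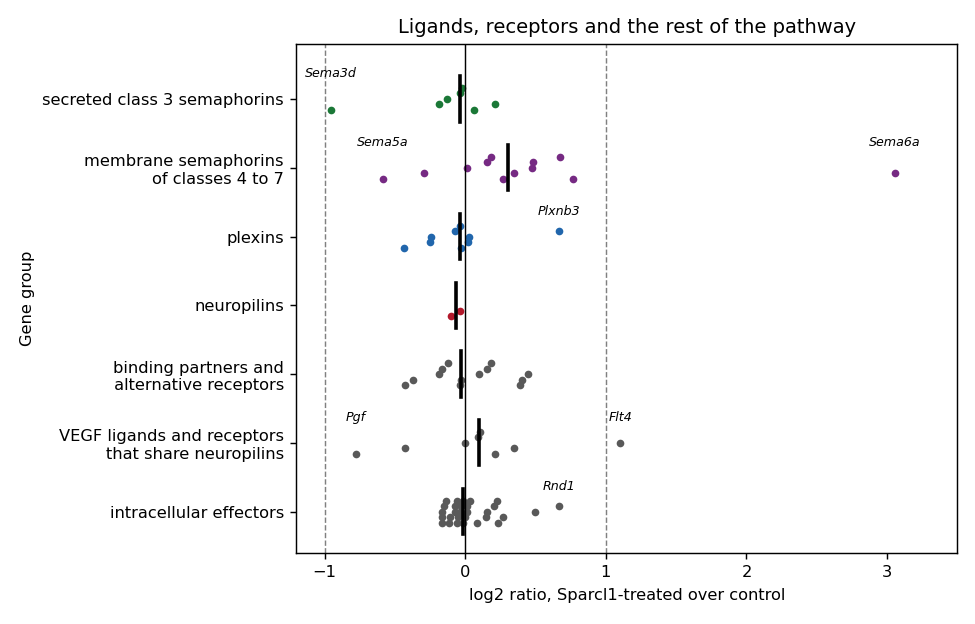
Log2 ratio, Sparcl1-treated over control (x axis), of the members by role (colours) and of 3 lists of pathway genes (grey). Each point is 1 gene with at least 20 summed counts, thick bars are medians, and dashed lines mark a log2 ratio of 1 in size. The membrane semaphorins have the highest median, 0.31, and Sema6a and Flt4 are the points past the dashed line.

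Cell type markers with different summed levels in the 2 libraries are given here, and their part in the members' ratios was not tested. All 6 measured osteoblast markers and all 6 measured smooth muscle and pericyte markers had ratios below 0, beside 50.4% of all measured genes. The interval lay below 0 for 4 of the osteoblast markers and 5 of the smooth muscle markers, beside 21.6% of all measured genes. It held 0 for Bglap (19 and 10 counts), Dmp1 (62 and 48) and Myh11 (16 and 14). Des, under the floor, had 3 and 6 counts. The osteoblast markers summed to 8413 CPM in the control and 6448 CPM after Sparcl1, and the smooth muscle markers to 1342 and 912. Most of the osteoblast sum was Col1a1 alone (8206 and 6309 CPM). Most of the smooth muscle sum was Acta2 (832 and 529 CPM) and Tagln (353 and 247 CPM). No marker of any list was called. Of the 12 macrophage markers 7 lay above 0 (median 0.04), and the 5 measured osteoclast markers had a median of 0.03. Chondrocyte markers had a median of -0.30, with 9 of 10 below 0.

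Some members share exons with other genes, and their counts are uncertain. Overlaps on the same strand, which no strand setting separates, were 115 bases for Plxnc1, 80 for Nrp1 and 73 for Sema4a, the last 2 with miRNA genes. Opposite-strand overlaps matter where counting did not use strand. Plxna1 overlaps an antisense gene over 970 of its 9054 exonic bases, Sema4c a transcript on the opposite strand over 334 of 4593, and Plxnb1 an antisense gene over 257 of 9592. Plxna4 has an antisense overlap of 110 bases. Sema6a, Sema6b, Sema5a and Sema3d have no exonic overlap with another annotated gene.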

How the data were processed

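RNA was sequenced from 2 libraries of primary mouse chondrocytes, 1 control and 1 Sparcl1-treated. The authors deposited whole-number counts per gene symbol, 1 column per library, matched to the samples by column name. The submitters' processing notes list STAR, HTSeq, FastQC and Trimmomatic as tools, and mm10 as the build. Their versions, the annotation and the strand setting are not given in the sources used here.

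Counts were scaled to CPM with TMM factors (0.988 and 1.01) from edgeR 4.0.16 in R 4.3.3. Log2 ratios had exact 95% Clopper-Pearson intervals on the treated library's part of a gene's counts, computed with Python 3.11.15 and scipy 1.17.1. Totals were 29858851 and 26871933. Lengths, GC content and positions came from GENCODE M21 (GRCm38), matched by symbol for 21900 of 21983 rows, and promoter sequences from RefSeq (GRCm38.p6). In 26 rows the symbol had been turned into a date, and these stayed in the totals. The steps were tested on simulated data. Named genes are all measured members and, for each pathway list, the called genes, the 2 most abundant and the highest and lowest ratio. Marker genes, and the list genes Trem2 and Timd2, fall outside this rule and were named after their values were seen. Members and lists were chosen with earlier results of these data known, and the depth ranges and promoter motifs after the values were seen. As alternatives, libraries were scaled by total counts, by upper-quartile factors or by DESeq2 1.42.0, beside other floors and sizes, a prior count, wider intervals and removal of length and GC trends. With 1 library per group nothing was tested between groups.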

Additional observations from a re-analysis of the deposited data

How the results depend on the processing

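Sema6a was the 1 member called higher under TMM, total-count, DESeq2 and upper-quartile scaling, with no count floor, at 3-fold, with a prior count of 2, with intervals widened by an assumed variation of 0.2 between cultures and with length and GC trends removed. With at least 100 summed counts 0 members were called higher, since Sema6a was then not measured. At 1.5-fold 4 were called higher and 2 lower. At the other settings 0 were called lower. The members' median log2 ratio stayed between -0.03 and 0.04, and 11 to 15 members lay below 0. With length and GC trends removed, the neuropilins' median was 0.039 in place of -0.066, and the cause was not tested. Medians by role and of the pathway lists were tried under other settings after the data were seen. Depth limits the rarest members: Sema6a rests on 26 reads. No paired analysis was possible because each group had 1 library.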
